A study of Mus musculus with 12 samples.

Results

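The alpha2delta proteins are the auxiliary subunits of voltage-gated calcium channels, and mice have 4 genes for them: Cacna2d1, Cacna2d2, Cacna2d3 and Cacna2d4. The genes were chosen by symbol, and all 4 were found among the 18208 genes of the RNA-seq table. In the CLIP data they held 101 of 147438 positions, each a 100-nt tile counted once, in 4 of the 16910 genes with any position. The 101 positions were split as 17 in Cacna2d1, 25 in Cacna2d2, 57 in Cacna2d3 and 2 in Cacna2d4. In GRCm38 the genes lie at chr5:15934691-16374511 (Cacna2d1, plus strand), chr9:107399612-107529343 (Cacna2d2, plus strand), chr14:28904943-29721864 (Cacna2d3, minus strand) and chr6:119236526-119352407 (Cacna2d4, plus strand).

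An alpha2delta protein is made as 1 precursor, cut into an extracellular alpha2 chain and a delta chain, and held at the outer face of the membrane. It brings calcium channels to the cell surface and to presynaptic terminals, and it also takes part in synapse formation, where thrombospondins are known ligands. Alpha2delta-1 and alpha2delta-2 are the targets of the drugs gabapentin and pregabalin. hnRNP H is an RNA-binding protein that regulates splicing and polyadenylation and is known to bind runs of guanine.

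The samples were striatum of wild-type C57BL/6J mice aged 50 to 100 days, bred from males heterozygous for a mutation of Hnrnph1 and C57BL/6J females. All mice were given saline (10 ml/kg) on 2 days, and on day 3 received either saline or methamphetamine, a psychostimulant, at 2 mg/kg by intraperitoneal injection. Tissue was taken 30 min later. Each library came from a pool of 4 mice, 2 females and 2 males, with 3 pools per treatment. Part of every pool was set aside for RNA-seq before cross-linking. The rest was cross-linked and precipitated with an antibody to hnRNP H (CLIP-seq). Libraries from mutant mice were not analysed here. The comparison asks whether transcript level or hnRNP H binding differed 30 min after methamphetamine.

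RNA-seq libraries held 3935160 to 5091839 reads and CLIP libraries 423057 to 1635338 reads in positions. In both assays the first principal component separated saline replicates 1 and 3 and methamphetamine replicate 2 (set A) from the other 3 libraries (set B), with 65.6% of the variance in RNA-seq and 46.6% in CLIP. Sets A and B are a split of the libraries found in the data, not a label. Counts of genes or positions that separate the sets are therefore not independent of that split. All 10 markers of striatal projection neurons were measured, with a summed level of 12.55 to 13.21 log2 CPM (reads scaled to library size), higher in set A than in set B. The 8 cortical excitatory neuron markers together reached 7.49 to 8.72 in set A, below the 8.83 to 9.70 of set B. The 4 choroid plexus markers summed to 12.26 in methamphetamine replicate 2 and to 5.85 to 7.78 elsewhere. In such bulk samples, fewer cells of a type and less RNA per cell cannot be told apart.

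Before the values, 2 stretches of transcript sequence show what kind of RNA the leading Cacna2d2 positions in the 3′ UTR hold. They are read 5′ to 3′ from GENCODE M21 transcripts (GRCm38). Capitals mark the repeated CA units in the first and runs of 3 or more G in the second. The first is part of the only Cacna2d2 position in either peak list of the authors, at chr9:107528513-107528612 in the 3′ UTR. The second is part of the neighbouring 3′ UTR position at chr9:107528713-107528812, which is in neither list.
Cacna2d2 3′ UTR, listed, chr9:107528537-107528566 (+): CACACACACACACACAgtccctgcccctag
Cacna2d2 3′ UTR, not listed, chr9:107528719-107528748 (+): aggaGGGGactgaGGGGcaGGGGGGaGGGG

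The listed Cacna2d2 position started 1048 nt after the stop codon of a 3′ UTR of 1879 nt. Its 100 nt held 20 CA units and no run of 3 or more G. Its unlisted neighbour held 8 such runs, with 51 G among 100 nt.

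Set against all exonic positions with a sequence, the CA repeat was uncommon and a run of G was not. A GGG was present in 70.9% of 24074 exonic positions, in 82.4% of the 3403 listed ones and in 77.4% of the 1475 listed ones in 3′ UTRs. A stretch of 6 CA units was present in 1.25% of exonic positions and in 48 of the listed 3′ UTR positions (3.25%). At least 8 runs of G were found in 1.04% of exonic positions. Motifs were read on the transcript strand only, and a match describes the letters and is not a binding site.

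The RNA level of Cacna2d2, which encodes alpha2delta-2, lay lower in all 3 methamphetamine pools than in all 3 saline pools, but the difference did not pass the test. In the saline pools it was 7.14, 7.23 and 7.01 log2 CPM. In the methamphetamine pools it was 6.88, 6.94 and 6.90. The groups did not overlap, and every methamphetamine library below every saline library was seen for 3.58% of the 18208 genes. The difference was -0.22 ± 0.14 (SE, 95% interval -0.54 to 0.11), or -14.0% on the linear scale (limma on all genes, adjusted p = 0.9998, n = 3 per group). Within set A the difference was -0.13, and within set B -0.34. Cacna2d2 had 500 to 708 reads per library.

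Cacna2d1, which encodes alpha2delta-1, was ordered by library set and not by treatment. Its saline levels were 5.69, 6.24 and 5.57 log2 CPM. Its methamphetamine levels were 5.77, 5.47 and 5.96. The treatments overlapped, while the 3 libraries of set A all lay below the 3 of set B, as some complete separation of the sets did for 38.8% of all genes. The treatment difference was -0.10 ± 0.22 (SE, 95% interval -0.59 to 0.40). It was 0.11 without saline replicate 2 and 0.04 without methamphetamine replicate 2, so its sign rested on either library. The summed cortical markers were also higher in all libraries of set B, as were those of astrocytes (9.34 to 9.59 against 8.86 to 9.17 log2 CPM), microglia (7.92 to 8.14 against 7.69 to 7.82) and endothelial cells (6.01 to 6.46 against 5.41 to 5.90). Their part in the Cacna2d1 level was not tested.

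Cacna2d3, which encodes alpha2delta-3, a form abundant in brain, had saline levels of 7.43, 7.61 and 7.21 log2 CPM. Its methamphetamine levels were 7.41, 6.95 and 7.38. The lowest value was that of methamphetamine replicate 2, and the treatments overlapped. The difference was -0.17 ± 0.19 (SE, 95% interval -0.59 to 0.25), and without methamphetamine replicate 2 it was -0.02.

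Cacna2d4, whose product alpha2delta-4 is best known from the photoreceptors of the retina, was the lowest of the 4. Its saline levels were 2.53, 2.04 and 2.60 log2 CPM and rested on 20, 19 and 24 reads. Its methamphetamine levels were 2.83, 2.36 and 2.69, from 35, 22 and 33 reads. The treatments overlapped, and the difference was 0.24 ± 0.32 (SE, 95% interval -0.49 to 0.96). It was -0.20 within set A and 0.72 within set B.

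**Figure D1:**
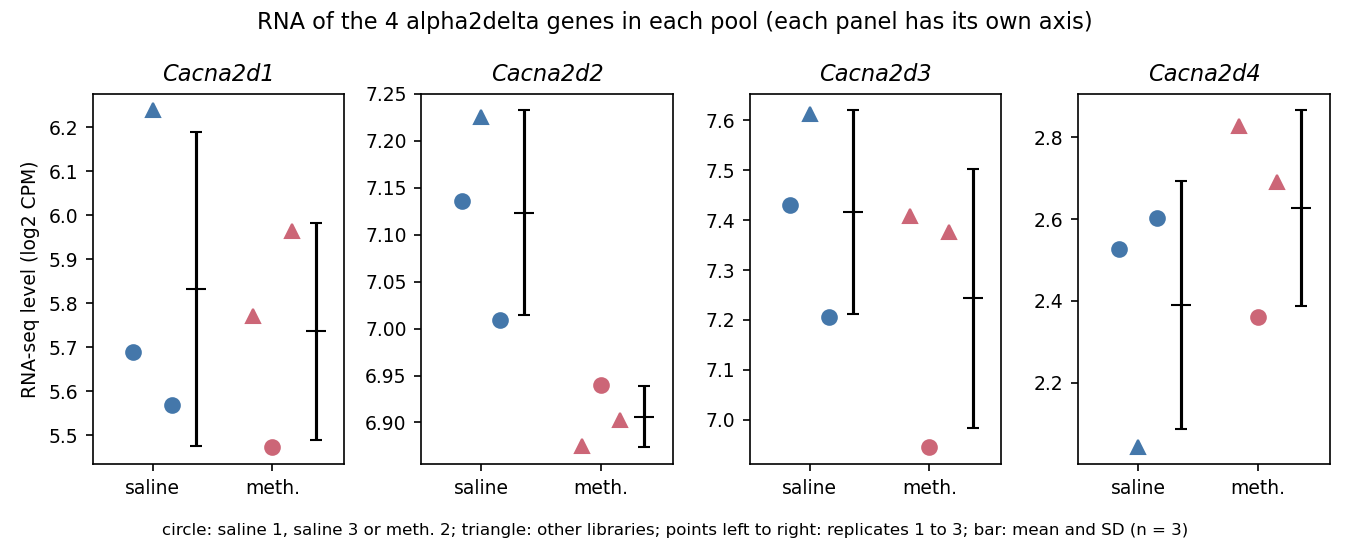
RNA level in log2 CPM (vertical axes, which differ between panels) of the 4 alpha2delta genes in 3 saline (blue) and 3 methamphetamine (red) pools, with the mean and SD of each group in black. The 3 methamphetamine pools lie below the 3 saline pools for Cacna2d2 only, at 6.88 to 6.94 against 7.01 to 7.23, and circles (set A) and triangles (set B) separate for Cacna2d1.

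None of the 4 genes passed the test (adjusted p = 0.9998 for each with limma), and neither did any other gene (0%), with edgeR and DESeq2 on the recovered reads also calling 0. At an unadjusted p under 0.05 there were 276 genes (1.52%), none of them an alpha2delta gene. Btg2 and Fos, which neurons induce quickly when active, were 1.28 ± 0.26 and 0.88 ± 0.23 log2 units (SE) higher after methamphetamine and did not pass either (limma, adjusted p = 0.9998). With 3 pools per group the intervals above give the sizes that these data leave possible.

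Between genes, levels can be compared only per length. As RPKM over the union of a gene's exons, Cacna2d3 had 18.6 ± 2.8 (SD over the 6 libraries), Cacna2d2 16.3 ± 1.6, Cacna2d1 4.50 ± 0.92 and Cacna2d4 0.597 ± 0.110. The ranges of Cacna2d3 (14.1 to 22.4) and Cacna2d2 (14.8 to 18.8) overlapped, with Cacna2d3 above Cacna2d2 in 5 of 6 libraries. Cacna2d1 (3.57 to 6.07) lay below both in every library, and Cacna2d4 (0.423 to 0.738) below all. With the length of the longest transcript, Cacna2d3 had 43.9 ± 6.7 and Cacna2d2 22.3 ± 2.2, and Cacna2d3 was above in 6 of 6 libraries. The order of the 4 genes was the same under both lengths, and the gap between the upper pair was not.

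Over the exon union, Cacna2d2 made up 41.5% ± 1.9 of the family's RPKM in saline and 40.4% ± 4.7 in methamphetamine (SD, n = 3 each). Cacna2d3 made up 46.3% ± 1.1 and 46.4% ± 4.0. Cacna2d1 made up 10.9% ± 1.6 and 11.5% ± 1.0, and Cacna2d4 1.32% ± 0.40 and 1.71% ± 0.15. For the 3 larger members the means differed by less than 1 SD of either the saline or the methamphetamine pools, and for Cacna2d4 the difference was about the size of the saline SD. The shares were not tested.

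The genes whose RNA varied most like each member over the 6 libraries were found by Pearson correlation among 7852 other genes with a mean above 4 log2 CPM (7853 for Cacna2d4, itself below that level). All points share the library sets described above. For Cacna2d2 they were Kit, a receptor tyrosine kinase (r = 0.987), Tmem229b (0.979) and Stard7 (0.979), and 14 genes had r above 0.9. For Cacna2d1 they were Ralgapb (0.993), Cacnb4, another auxiliary calcium channel subunit (0.992), and Ubr1 (0.990), and 317 genes had r above 0.9. For Cacna2d3 they were Abi1 (0.992), Kcnj2, an inward rectifier potassium channel (0.981), and Tacr1, the substance P receptor (0.979). For Cacna2d4 they were Vgll4 (0.983), Dctn3 (0.976) and Cdipt (0.960).

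The other genes named as calcium channel subunits, the pore-forming, beta and gamma ones, were measured for 22 of 22 genes. None passed the test in either direction, 8 had a difference above 0 and 14 below. The median log2 difference was -0.06, where that of all genes was 0.00. The smallest unadjusted p belonged to Cacng4 (-0.23 ± 0.19, SE), Cacna1s (-0.47 ± 0.46) and Cacng6 (0.76 ± 0.74), ranked without a call. Of 15 ligands and partners of alpha2delta proteins, none passed, 10 were above 0 and 5 below, with a median of 0.08. Thbs2, a thrombospondin, had saline levels of 0.63, 1.28 and 1.08 log2 CPM and methamphetamine levels of 2.17, 1.62 and 1.98. It was the 1 of the 15 with every methamphetamine library above every saline library, against 2.44% of all genes. The difference was 0.93 ± 0.40 (SE; limma, unadjusted p = 0.0449, adjusted p = 0.9998). Thbs1 (0.83 ± 0.61) and Comp (-0.54 ± 0.41), of the same family, followed in the ranking. In every library Thbs2, Cacna1s and Cacng6 lay below Cacna2d4, which itself had only 19 to 35 reads per library.

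The CLIP reads of the 4 genes differed in amount and place. Cacna2d3 had 2316 reads over the 6 libraries, Cacna2d1 559, Cacna2d2 224 and Cacna2d4 133. Positions were densest in Cacna2d2, at 19.3 per 100 kb of gene against 6.98 in Cacna2d3, 3.87 in Cacna2d1 and 1.73 in Cacna2d4, but 21 of the 25 in Cacna2d2 held 10 reads or fewer. The genes are long, from 115.9 kb for Cacna2d4 to 816.9 kb for Cacna2d3.

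Only Cacna2d2 had a large part of its reads in the 3′ UTR. There, 4 positions held 96 of 224 reads (42.9%), and 18 intron positions held 46.9%. Those at chr9:107529013-107529112 and chr9:107529113-107529212 adjoin, held 6 and 5 reads, and may share reads. In Cacna2d1, introns held 71.7% of reads, exons of transcripts without a coding region 26.3% and the 3′ UTR 1.97%. All 57 positions of Cacna2d3 and both of Cacna2d4 were in introns. Over all 147438 positions, 3′ UTRs held 8.16% of reads and introns 70.4%.

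**Figure D2:**
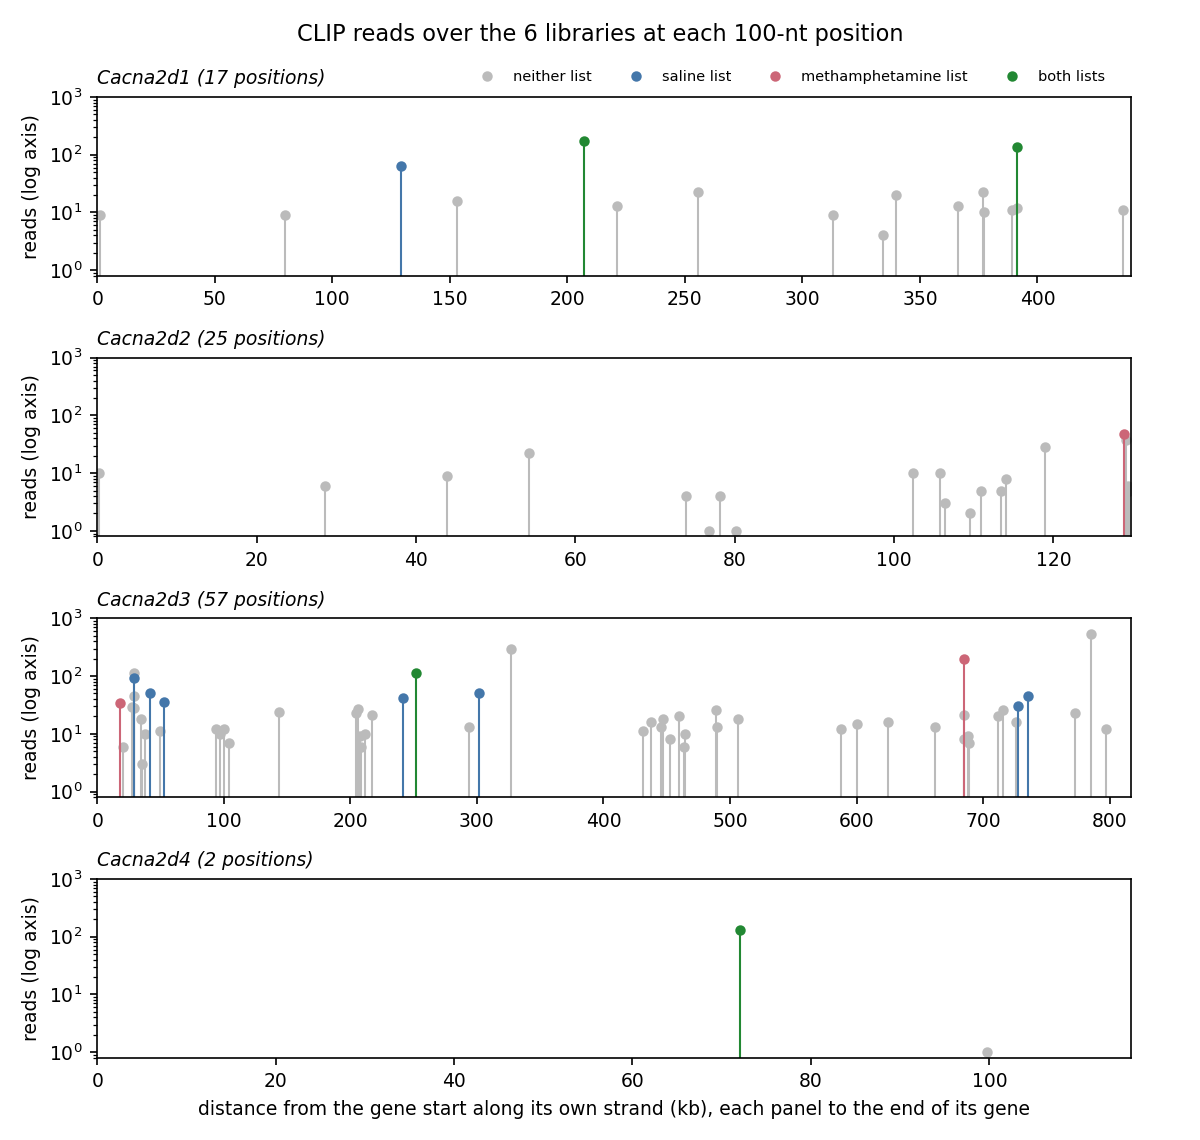
CLIP reads summed over the 6 libraries (vertical axes, log scale) at each position of the 4 genes, against the distance from the gene start in kb (horizontal axes, each to the end of its gene), coloured by the authors' peak list. Cacna2d2 has its highest point, with 48 reads, at the end of the gene, whereas the 543 reads at the highest Cacna2d3 position lie in an intron and in neither list.

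The 3′ UTR share of Cacna2d2 reads was 47.2% (17 of 36 reads), 64.7% (11 of 17) and 36.2% (17 of 47) in the saline pools. It was 43.5% (27 of 62), 46.4% (13 of 28) and 32.4% (11 of 34) in the methamphetamine pools. These counts include the adjoining positions named above, which may share reads and each held 3 reads in saline replicate 2. The groups overlapped, and each share is loose at this depth: the Wilson 95% interval of saline replicate 2 ran from 41.3% to 82.7%. The means were 49.4% ± 14.4 and 40.8% ± 7.4 (SD, n = 3), a difference of -8.59 points (2-sided exact permutation test, p = 0.4, where the smallest p this design allows is 0.1).

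The authors' lists, 1 per treatment, held 15 positions of the family, with 4 in both, 8 in the saline list only and 3 in the methamphetamine list only. The saline list had 12 (8 in Cacna2d3, 3 in Cacna2d1, 1 in Cacna2d4 and 0 in Cacna2d2), and the methamphetamine list 7 (3, 2, 1 and 1 in the same order). The 4 shared positions are 33.3% of the saline and 57.1% of the methamphetamine entries. The whole lists held 9537 and 9903 positions, of which 4729 were shared (49.6% and 47.8%), 4808 were in the saline list only and 5174 in the methamphetamine list only. The authors placed 14 of the 15 in introns and the Cacna2d2 position in the 3′ UTR. Of the 101 member positions, 9 had enough reads to be tested, and of the 15 listed ones 6.

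None of the 9 tested positions passed (edgeR quasi-likelihood test, 0% of 10358 positions called, 347 at an unadjusted p under 0.05, and 0 called by DESeq2). None had treatments that did not overlap, against 4.33% of tested positions with methamphetamine above and 3.62% with methamphetamine below. In 5 of the 9 every library of set A lay above every library of set B, a pattern seen in 14.1% of tested positions. The sets were read from these same tested positions, so that comparison is not independent of the split. Apart from the Cacna2d4 position, which passed the count filter through set A, all of the 5 are in Cacna2d3. The 5 include the adjoining Cacna2d3 positions from 29692644 and 29692744, which may share reads.

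The listed Cacna2d2 position, with the CA repeat shown above, was in the methamphetamine list only, with an authors' signal value of 1.92 and q = 3.99e-06 in the authors' deposited table. Saline libraries gave it 6, 2 and 7 reads, methamphetamine libraries 19, 5 and 9. On the TMM scale, these are 6.78, 7.17 and 5.15 CPM against 39.1, 6.02 and 22.8. TMM divides by an effective library size taken from the tested positions, not by the total reads. That size was 485951 for methamphetamine replicate 1, with 909091 reads in positions, and 884811 for saline replicate 1, with 1053269. Methamphetamine replicates 1 and 3 were high and replicate 2 was at the level of saline, so the groups overlapped. On this scale all 3 libraries of set B were above all 3 of set A. The order of saline replicate 2 (2 reads) above saline replicate 1 (6 reads) rested on the scaling. The share of positions with set B above set A was not counted. The means were 6.37 ± 1.07 and 22.6 ± 16.5 CPM (SD, n = 3; 2-sided exact permutation test, p = 0.3, smallest possible 0.1). The position did not reach the count filter. It was singled out by a list made from these same methamphetamine libraries. Neither the permutation test nor the fit that follows is independent of that choice. Fitted with all 147438 positions, and scaled anew over all of them, the position differed by 1.19 ± 0.99 (SE, log2, edgeR, adjusted p = 0.887). That is not the scale of the CPM above.

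The G-rich neighbour of that position had 9, 3 and 8 reads in saline and 7, 8 and 2 in methamphetamine. Its levels were 8.94 ± 2.65 and 9.70 ± 4.67 CPM (SD, n = 3), which differ by less than the spread between pools. The next Cacna2d2 position by reads, in an intron at chr9:107518513-107518612, had 28 reads in all.

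In Cacna2d1, 2 positions were in both lists, and their differences had opposite signs. At chr5:16141592-16141691, in an intron, reads were 42, 10 and 66 in saline and 20, 29 and 9 in methamphetamine. The levels overlapped, and the difference was -0.42 ± 0.41 (SE, log2; edgeR, adjusted p = 0.9998), or -0.87 without a filter on low counts. The other shared position, second in the gene by reads, had 36, 6 and 28 reads in saline and 26, 24 and 15 in methamphetamine. Its levels overlapped too, and the difference was 0.51 ± 0.48 (SE, log2; edgeR, adjusted p = 0.9998), or 0.0047 without that filter. Its signal values in the authors' deposited table were 2.26 in the saline list and 2.35 in the methamphetamine list. One more position, at chr5:16063892-16063991, was in the saline list only and had 22, 4 and 19 reads against 9, 6 and 5.

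In Cacna2d3, the 2 positions with the most reads were in neither list. At chr14:28936144-28936243 reads were 133, 25 and 177 in saline and 37, 129 and 42 in methamphetamine, 543 in all. Its levels overlapped between treatments and were higher in every library of set A than in any of set B. At chr14:29395144-29395243 reads were 58, 19 and 81 against 46, 64 and 23, and both the treatments and the sets overlapped. Their differences were -0.14 ± 0.41 and 0.26 ± 0.35 (SE, log2).

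The listed positions of Cacna2d3 showed how list membership and counts can part. At chr14:29037144-29037243, in the methamphetamine list only, reads were 76, 4 and 47 in saline and 15, 48 and 6 in methamphetamine, a difference of -0.39 ± 0.71. At chr14:29470244-29470343, in both lists, they were 24, 4 and 38 against 15, 16 and 16, a difference of 0.31 ± 0.49. At chr14:29703444-29703543, in the methamphetamine list only, they were 0, 0 and 3 against 22, 6 and 3. After scaling this was the 1 listed position of the 15 at which every methamphetamine library was above every saline library. Over the 13811 positions of either list with counts, 6.52% had that pattern. Saline replicate 3 and methamphetamine replicate 3 both had 3 reads, so their order rests on the scaling. The methamphetamine list was made from these same libraries, so the pattern is not independent of it. The position was below the count filter and was not tested. The tested Cacna2d3 position with the smallest unadjusted p, at chr14:29692744-29692843 and next to a position of the saline list, differed by -1.02 ± 0.87 (SE; edgeR, adjusted p = 0.9998). That value was -0.25 without saline replicate 1, -0.57 without methamphetamine replicate 1 and -2.39 without methamphetamine replicate 2. These neighbours are 100 nt apart and may share reads. The 7 positions of Cacna2d3 in the saline list only, with signal values of 1.28 to 2.41 in the authors' deposited table, held 30 to 92 reads over the 6 libraries, and their treatments overlapped.

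**Figure D3:**
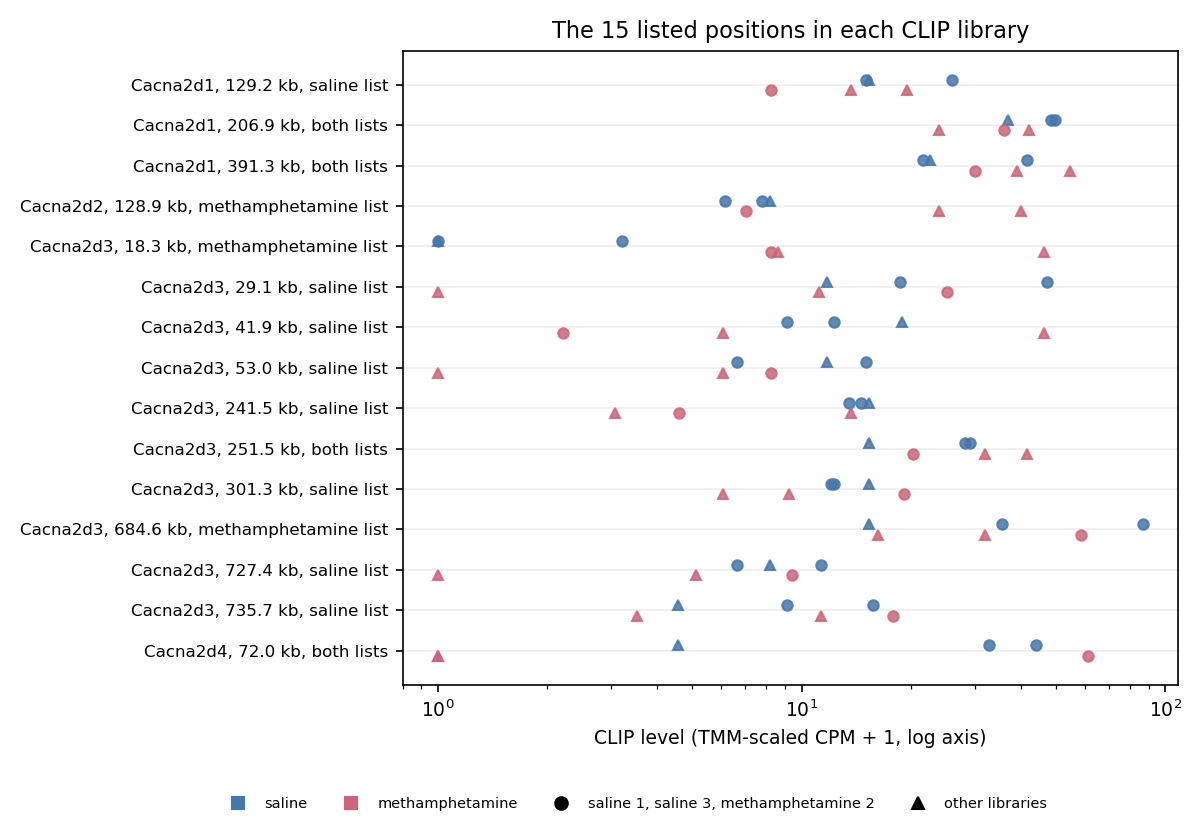
CLIP level of the 15 listed positions in each library, as TMM-scaled CPM + 1 (horizontal axis, log scale). Saline is in blue and methamphetamine in red, and rows are named by gene, distance from the gene start and list. Blue and red overlap in every row except that of Cacna2d3 at 18.3 kb, and the Cacna2d4 row holds only circles (set A) at its upper end.

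Cacna2d4 had 132 of its 133 CLIP reads at 1 position, chr6:119308527-119308626, in an intron and in both lists. The saline pools gave 38, 1 and 43 reads, the methamphetamine pools 0, 50 and 0. The 3 libraries with 38 or more reads were those of set A, and the other 3 had 0 or 1, where a count of 0 allows up to 3 reads. The RNA of Cacna2d4 did not separate the sets. Of 2974 tested positions with at least 38 reads in each library of set A, 12 had at most 1 in each library of set B, 11 of them in introns. Both cut-offs were taken from the Cacna2d4 position, which is therefore among the 12 by construction. The count cannot show how unusual that position is. The cut-offs are also raw reads, not scaled for depth. Effective library sizes of set B, at 279115 to 485951, were all smaller than those of set A, at 830816 to 1358440. The treatment difference at the position was -0.34 ± 1.36 (SE, log2; edgeR, adjusted p = 0.9998), and what sets the 2 groups of libraries apart was not tested.

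Summed per gene, CLIP levels of Cacna2d2 were 36.2, 41.4 and 28.6 CPM in saline and 63.6, 28.2 and 57.1 in methamphetamine. Methamphetamine replicate 2 was the lowest of the 6, so the treatments overlapped, while set B lay above set A. The share of genes with set B above set A was not counted. The difference was 0.58 ± 0.47 (SE, log2; edgeR over 8177 genes, adjusted p = 0.883) and 0.29 without methamphetamine replicate 1. Of these genes 0% were called, 429 had an unadjusted p under 0.05, and DESeq2 called 0.

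Cacna2d1 had 155.8, 65.7 and 89.5 CPM in saline and 95.3, 98.9 and 65.5 in methamphetamine, a difference of -0.18 ± 0.42. Cacna2d3 had 570.0, 226.4 and 366.3 CPM in saline and 459.2, 445.9 and 275.5 in methamphetamine, a difference of 0.11 ± 0.41. In both genes the lowest value was in set B and the groups overlapped. Cacna2d4 followed its single position, at 38.2, 2.43 and 26.8 CPM against 0, 50.4 and 0.

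**Figure D4:**
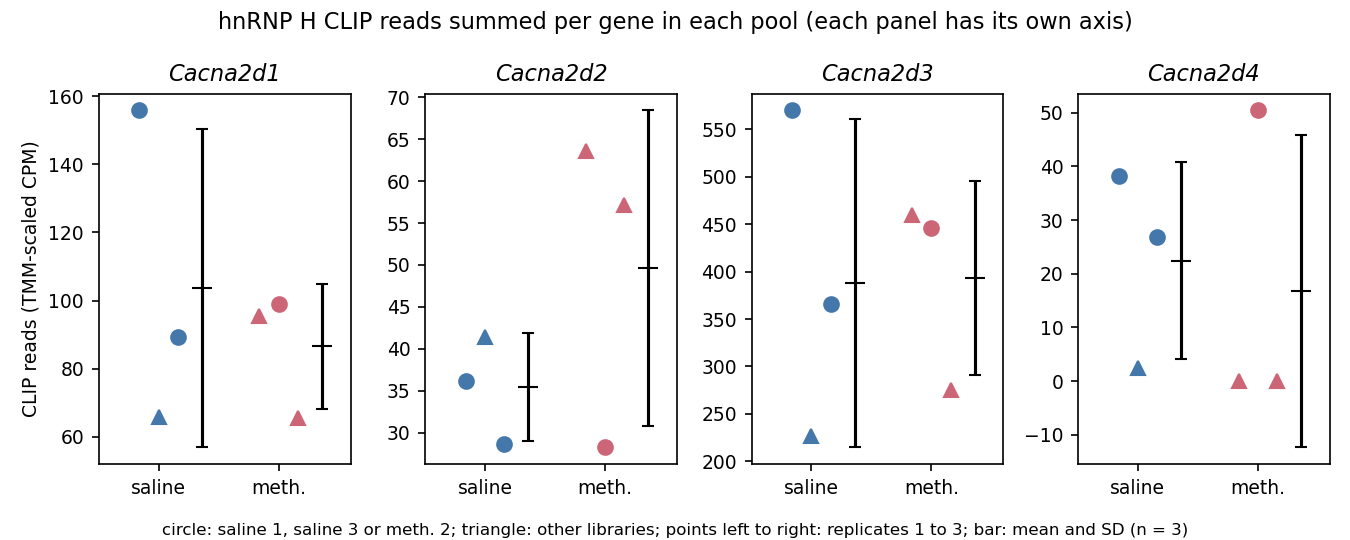
CLIP reads summed per gene as TMM-scaled CPM (vertical axes, which differ between panels) in 3 saline (blue) and 3 methamphetamine (red) pools, with mean and SD in black. Treatments overlap for all 4 genes, and triangles (set B) lie above circles (set A) for Cacna2d2 and below them for Cacna2d4.

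CLIP was also set against the RNA of the same pool, as the log2 CLIP level minus the log2 RNA level. For Cacna2d2 this was -1.94, -1.81 and -2.16 in saline and -0.87, -2.09 and -1.05 in methamphetamine. Methamphetamine replicates 1 and 3 were the highest, and replicate 2 lay within the saline range. The value is not scaled for length, so it was compared between pools of a gene and not between genes. The Cacna2d2 difference over 7021 tested genes was 0.63 ± 0.50 (SE, 95% interval -0.50 to 1.76; limma, adjusted p = 0.998), 0.40 without methamphetamine replicate 1 and 1.01 without methamphetamine replicate 2. It was -0.09 ± 0.59 for Cacna2d1 and 0.26 ± 0.58 for Cacna2d3. For Cacna2d4 it was -2.72 ± 1.66 and rested on the libraries with 0 reads. None of the 4 passed, and 0% of genes did (limma, 216 at an unadjusted p under 0.05).

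Among the other calcium channel subunits, 17 of 22 had enough CLIP reads to be tested per gene and none passed. Of the 17, 14 had a difference above 0, with a median of 0.32 on the log2 scale against 0.04 for all 8177 genes tested. Of all 8177 genes, 4281 were above 0. A position in either list was found for 15 of the 22, counted over the whole list of subunits. It was found for 40.6% of the 16910 genes with any CLIP position, which is a different base. Among the ligands and partners 11 of 15 were tested, none passed, 8 were above 0 with a median of 0.33, and 9 of the 15 had a listed position.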

How the data were processed

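RNA-seq and hnRNP H CLIP-seq were analysed in 6 striatal pools each. The submitters' processing notes name Trimmomatic, UMI-tools, STAR, bedtools, Subread, featureCounts, limma and edgeR and the build mm10, without roles. For CLIP the labels' protocols describe a membrane slice from 50 to 75 kDa. The deposited RNA-seq values are log2 CPM with an offset of 0.5 reads; all values gave back whole reads (100%), used for reads per library and RPKM. The deposited CLIP table holds whole-number counts per position and library. The authors' peak lists give a signal value (a score of unstated scale) and p-values and q-values, 1 list per treatment, so replicates cannot be compared within a list. Whether counting used strand is not given in the sources used here, so overlapping genes (Lrtm1 in Cacna2d3, Lrtm2 in Cacna2d4) may share reads.

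RNA levels and log2 CLIP minus RNA were tested with limma 3.58.1 (variance trend) and counts with edgeR 4.0.16 (TMM, filterByExpr, quasi-likelihood) in R 4.3.3, over all features, with Benjamini-Hochberg adjustment at 0.05. The SE given with edgeR values was derived from the test and is not an error estimated by the model. It is the size of the log2 difference divided by the square root of the quasi-likelihood F statistic. DESeq2 1.42.0 was an alternative. Permutation tests used scipy 1.17.1. Fits were also run on simulated data without the split into sets A and B, which does not show how they behave with that split. Regions and sequences came from GENCODE M21 (GRCm38, 1-based), and peaks counted as shared from 1 bp of overlap. The Wilson interval covers counting error only, and the limma intervals include the spread between pools. The members and gene lists were chosen with earlier results of these data known. The genes named were the 4 members, their listed positions, the 3 positions with most reads per member and the tested one with the smallest p, the 3 most correlated genes per member, and from each gene list those that passed or else the 3 smallest p. Of the listed positions, those outside the account are given by counts and in the plot. The sequence and coordinates of 1 listed Cacna2d1 position are not reported here.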

Additional observations from a re-analysis of the deposited data

How the results depend on the processing

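No gene and no position was called in the RNA, CLIP-per-gene and CLIP-relative-to-RNA fits under any alternative run (other variance trend, offset, filter, tool, library set, each replicate left out). The CLIP position fit called 406 of 147438 positions without a filter on low counts, none of them in an alpha2delta gene, and 0 under its other alternatives and with each replicate left out (0 to 0). At an unadjusted p under 0.05 the RNA fit had 276 genes and 81 to 958 elsewhere. The 3′ UTR share of Cacna2d2 differed by -8.59 points, and by -15.2 to -0.920 with each replicate left out. The 4 shared listed positions were 4 at an overlap of 50 bp and 3 among positions whose signal value reached the median of their list. Of 225 refits of single genes and positions, none had an adjusted p under the threshold and 26 changed sign. Without a filter, the Cacna2d3 positions from 29395144 and 29470244 were at -0.16 and -0.20. With the library set as a covariate, the Cacna2d3 positions from 28936144 and 29037144 were at 0.0895 and 0.21, the Cacna2d4 position at 0.34, Cacna2d4 CLIP per gene at 0.32, Cacna2d1 CLIP per gene at 0.00 and Cacna2d1 CLIP relative to RNA at 0.26. Over listed positions only, Cacna2d3 CLIP per gene was at -0.15. With each replicate left out, ranges that crossed 0 were -0.23 to 0.11 for Cacna2d1 RNA, -0.50 to 0.046 and -1.07 to 0.44 for the Cacna2d3 positions from 28936144 and 29037144, -7.26 to 0.17 for the Cacna2d4 position, -0.42 to 0.20, -0.17 to 0.46 and -7.41 to 0.16 for CLIP per gene of Cacna2d1, Cacna2d3 and Cacna2d4, and -0.57 to 0.31 and -0.18 to 0.58 for CLIP relative to RNA of Cacna2d1 and Cacna2d3. The cause of these changes was not tested. Cacna2d2 kept its sign in every refit, at -0.27 to -0.17 for RNA, 0.18 to 0.87 for CLIP per gene and 0.40 to 1.01 for CLIP relative to RNA.

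The labels number the pools 1 to 3 in both treatments, but same-numbered pools did not vary together (correlations of -0.35, -0.82 and -0.49 in RNA-seq and -0.37, -0.55 and -0.08 in CLIP). Each same-numbered pair falls across sets A and B, so these correlations cannot show whether such pools were prepared together. With the replicate block, 0 genes or positions were called in each of the fits, as without it. The 3′ UTR share over listed positions only was not run, because Cacna2d2 has 1 listed position. None of the 25 Cacna2d2 positions reached the count filter, and Cacna2d4 had 0 or 1 CLIP reads in 3 libraries.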
